A study of Homo sapiens with 2 samples.

Results

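The 10 genes described here belong to the NF-kB system: the 5 subunits NFKB1, NFKB2, RELA, RELB and REL, the inhibitors NFKBIA, NFKBIB and TNFAIP3, the atypical inhibitor BCL3 and the chemokine CCL5. They were taken by gene name from a deposited table of 43337 genes, and all 10 were found there. RNA had been sequenced from cells labelled BT549, a human line from a triple-negative breast cancer. 1 library carried the SIK1_S435D genotype and 1 the SIK1_WT genotype, and the series text describes both as overexpression of SIK1, a serine/threonine kinase. S435D denotes aspartate in place of a serine, an exchange often used to imitate phosphorylation. Both groups therefore share an overexpressed SIK1, and cells without a construct were not analysed here. The sources used here do not give the vector, its promoter, or whether the cells were a clone or a pool. With 1 library per group no test was run and no spread between replicates is known, so each interval below covers counting error only and compares these libraries, not the constructs.

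NF-kB factors are dimers of proteins that share the Rel homology domain, which binds DNA. In the canonical pathway IkB proteins hold the dimers in the cytoplasm until the IKK kinase complex marks the IkB protein for degradation. In the non-canonical pathway the kinase NIK, encoded by MAP3K14, leads to the processing of the NFKB2 product and to dimers with RELB. Several inhibitors and subunits are themselves NF-kB targets, which gives the pathway its feedback loops.

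The deposited values were RPKM, which corrects reads for the length of a gene and the depth of a library, so levels of genes can be set side by side. The length is that given for the gene, not that of the transcripts in use. Ratios between genes can therefore be off in ways the counting intervals do not show. Whole reads could be recovered from them. Summed over genes, the S435D library had 23520828 reads and the WT library 22366506. A read counted for more than 1 gene would enter these sums more than once. SIK1 stood at 422 RPKM in the S435D library and 380 RPKM in the WT library. Of the mesenchymal genes listed for a BT549-type line, VIM was at 113 and 116 RPKM and ZEB1 at 6.34 and 5.98 RPKM in the S435D and WT libraries. FN1 was low, at 1.17 and 1.16 RPKM, and CD44, which such cells usually carry at a high level, had 8 reads in each library. That low CD44 goes against the label, so the cells are called here only by their genotype. ESR1 had 0 reads in the S435D library and 1 in the WT library, and PGR had 0 in both. The epithelial genes CDH1 and EPCAM had reads in both libraries. CDH1 was at 0.798 RPKM in the S435D library and 0.651 in the WT library, and EPCAM at 2.11 and 2.48 RPKM. No read of the blood and endothelial genes PTPRC, HBB and PECAM1 was found in either library, where a count of 0 leaves room for up to 3 reads.

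Many NF-kB genes carry the motif that NF-kB itself binds, so the start regions of the members were read first. RefSeq promoter windows (GRCh38.p14, from 250 bases before to 50 bases after an annotated start) were available for 8 of the 10 genes. CCL5 and RELB were not matched. The 10-base kB consensus motif was searched on both strands, overlapping matches included. It was present in at least 1 window of 7 of these 8 genes (87.5%), against 3619 of 27305 genes in the whole table (13.3%), 17.3% of expressed genes with a window and 35 of 94 listed pathway genes with a window (37.2%). By window, 8 of the 13 windows of the members held it (61.5%), against 11.3% of all 35116 windows, 13.7% of those of expressed genes and 29.7% of those of the listed pathway genes. RELA was the member with no match in its windows. The motif is rich in G and C, and the members' windows ranged from 51.3% to 80% GC. The sets compared were not matched for GC content, so its part in these shares was not tested. A match describes letters and is not a measured binding site. The stretches below are shown because they carry the matches, in capitals, in subunits and inhibitors whose levels follow, each 5′ to 3′ on the strand of its gene.

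NFKB1 (chr4:102501300-102501329, plus strand): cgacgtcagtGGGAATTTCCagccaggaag
NFKB2 (chr10:102394461-102394490, plus strand): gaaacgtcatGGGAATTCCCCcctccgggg
REL (chr2:60881517-60881546, plus strand): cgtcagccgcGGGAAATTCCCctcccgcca
NFKBIB (chr19:38899931-38899960, plus strand): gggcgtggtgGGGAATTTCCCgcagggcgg
TNFAIP3 (chr6:137867188-137867217, plus strand): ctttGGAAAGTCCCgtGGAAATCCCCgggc
BCL3 (chr19:44748700-44748729, plus strand): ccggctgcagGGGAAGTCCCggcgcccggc

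The NFKB1 and NFKBIB stretches share the run GGGAATTTCC. The capitals of NFKB2, REL and NFKBIB are 11 bases long because a match on each strand is offset by 1 base. The TNFAIP3 stretch holds 2 separate matches. Genes can have several RefSeq starts, and a start here is that of the window. By that start the BCL3 match shown lies just after it and the other matches shown lie before it. By the gene spans of the deposited table, given below, the NFKB2, REL, NFKBIB, TNFAIP3 and BCL3 matches lie inside the gene. For NFKBIA, the classical feedback inhibitor, all 250 bases before the start are shown (chr14:35404750-35404999, minus strand), with the single match ending 71 bases from the start:
NFKBIA: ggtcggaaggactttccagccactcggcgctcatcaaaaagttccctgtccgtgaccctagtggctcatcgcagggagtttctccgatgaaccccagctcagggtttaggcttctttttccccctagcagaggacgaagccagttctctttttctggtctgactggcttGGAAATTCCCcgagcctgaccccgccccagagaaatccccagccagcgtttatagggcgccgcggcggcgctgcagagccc

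The members fell into a high and a low tier that was the same in both libraries. RELA, NFKB2, NFKBIA and NFKBIB lay between 16.4 and 22.6 RPKM in the S435D library and between 17.5 and 22.5 RPKM in the WT library. The other 6 members were at most 4.16 RPKM in the S435D library and at most 3.18 RPKM in the WT library. REL and BCL3 had a mean below 1 RPKM, so 8 of the 10 members counted as expressed. RELA stood above 83.6% of the 13290 expressed genes in the S435D library and above 82.9% in the WT library, and NFKB1 above 35.2% and 36.2%.

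**Figure D1:**
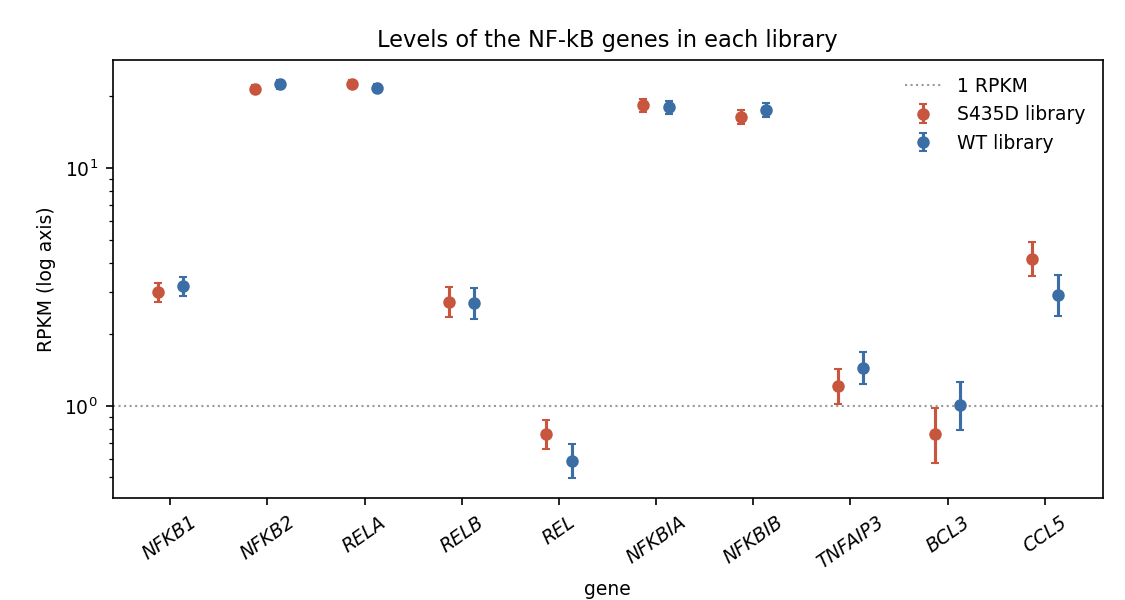
RPKM (log axis) of the 10 NF-kB genes in the S435D library (left point of each pair) and the WT library (right point), with exact Poisson 95% counting intervals; the dotted line marks 1 RPKM. RELA, NFKB2, NFKBIA and NFKBIB sit above 16 RPKM in both libraries, and the interval of CCL5 is the one that shifts upward most in the S435D library.

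Within the high tier, RELA was first in the S435D library (22.6 RPKM, interval 21.8 to 23.5), followed by NFKB2 (21.5, 20.6 to 22.4). In the WT library NFKB2 was first (22.5, 21.5 to 23.4) and RELA next (21.7, 20.9 to 22.6). The intervals of these neighbours overlapped in both libraries, so their order was not called. Those of NFKBIA and NFKBIB overlapped in both libraries too. Taken directly, the ratio of NFKBIA to NFKBIB was 1.12 (1.02 to 1.23) in the S435D library, which leaves out 1. In the WT library it was 1.03 (0.937 to 1.13), which includes 1. In the low tier, CCL5 was above NFKB1 in the S435D library with intervals that did not overlap, at 4.16 (3.52 to 4.89) against 2.997 RPKM (2.72 to 3.29). In the WT library CCL5 lay between NFKB1 and RELB at 2.93 RPKM (2.38 to 3.56), and its interval overlapped both.

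Among the subunits, RELA (chromosome 11, 65653596 to 65663094, minus strand), which encodes the p65 activating subunit of the canonical dimer, had 2907 reads in the S435D library and 2658 in the WT library. Its fold of S435D over WT, a ratio of RPKM without a pseudocount, was 1.04 (0.986 to 1.10). NFKB1 (chromosome 4, 102501329 to 102617302, plus strand), which encodes p105 and its product p50, the usual partner of p65, had 441 and 445 reads and a fold of 0.942 (0.824 to 1.08). Both intervals include 1. The RPKM of RELA was 7.55 times that of NFKB1 in the S435D library (6.83 to 8.36) and 6.84 times in the WT library (6.18 to 7.58).

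NFKB2 (chromosome 10, 102394110 to 102402529, plus strand) encodes p100, the precursor of p52 in the non-canonical pathway. It stood at 21.5 RPKM in the S435D library and 22.5 in the WT library, a fold of 0.958 (0.903 to 1.02). RELB (chromosome 19, 45001430 to 45038198, plus strand), the partner of p52, had 196 reads in the S435D library and 183 in the WT library, at 2.75 and 2.70 RPKM (fold 1.02, 0.828 to 1.25). The libraries were alike in the spacing of this pair: NFKB2 exceeded RELB 7.83 times in the S435D library (6.77 to 9.11) and 8.33 times in the WT library (7.16 to 9.74). The 5 subunits summed to 50.6 RPKM in the S435D library and 50.7 in the WT library.

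REL (chromosome 2, 60881521 to 60931610, plus strand), which encodes c-Rel, a subunit best known from lymphocytes, was the least abundant subunit. It had 202 reads in the S435D library and 148 in the WT library, at 0.763 and 0.588 RPKM, so the S435D value was higher (fold 1.30, 1.04 to 1.62). Below 1 RPKM on average, REL did not pass the filter. Its last exon also holds a separately listed gene on the same strand, RP11-373L24.1 (60925909 to 60931610), whose 5702 bases all lie in the 3′ untranslated region of REL. Over the table, genes listed as 1 stretch with at least 20 reads in both libraries together were sought inside an exon of another gene. There were 95 such pairs of an inner and an outer gene on the same strand. In 95 of these pairs the outer gene had at least as many reads in both libraries. Reads there were thus taken as counted for both genes.

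On that reading, which was chosen after the values had been seen, the difference in REL lay outside the shared end. The shared stretch had 139 reads in the S435D library and 125 in the WT library, a fold of 1.06 (0.824 to 1.36). The remaining 5553 bases, which hold all coding exons, had 63 and 23 reads, a fold of 2.60 (1.59 to 4.40). That corresponds to 0.482 RPKM in the S435D library and 0.185 RPKM in the WT library, so it rests on few reads.

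**Figure D2:**
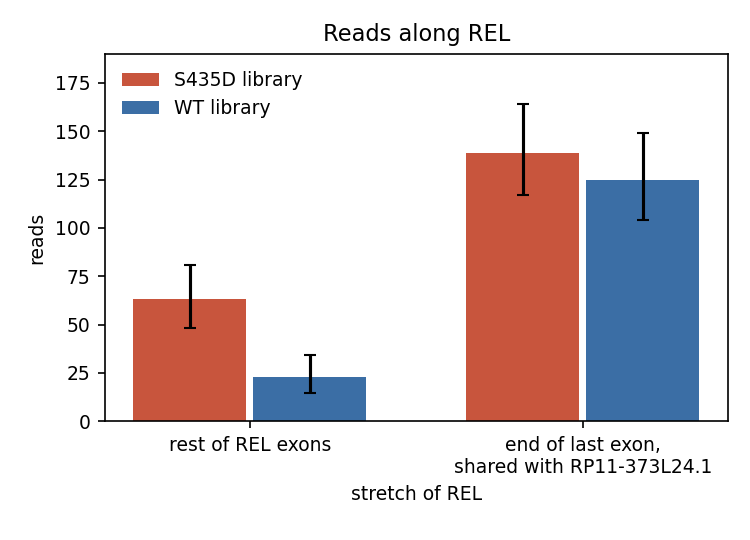
Reads on 2 stretches of REL in the S435D library (left bar of each pair) and the WT library (right bar), with exact Poisson 95% counting intervals. The stretch shared with RP11-373L24.1 has 139 and 125 reads, and the rest of the exons, taken as REL reads minus RP11-373L24.1 reads, has 63 and 23.

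Of the inhibitors, NFKBIA (chromosome 14, 35401511 to 35404749, minus strand), which encodes IkB-alpha and is induced by NF-kB, had 1024 reads in the S435D library and 956 in the WT library. At 18.3 and 18.01 RPKM its fold was 1.02 (0.932 to 1.11). NFKBIB (chromosome 19, 38899700 to 38908893, plus strand), which encodes IkB-beta, stood at 16.4 and 17.5 RPKM, with a fold of 0.934 (0.851 to 1.03). It shares 40 exonic bases with SIRT2 on the other strand, which was at 3.91 RPKM in the S435D library and 3.93 in the WT library. Relative to RELA, NFKBIA was at 0.811 in the S435D library (0.755 to 0.871) and 0.828 in the WT library (0.768 to 0.892). NFKBIB was at 0.725 (0.672 to 0.781) and 0.807 (0.747 to 0.870) of RELA. The S435D value was 0.898 times the WT value. No interval was computed for that 0.898, and the overlap of the separate intervals does not decide whether the libraries differ.

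TNFAIP3 (chromosome 6, 137867188 to 137883312, plus strand) encodes A20, a ubiquitin-editing enzyme that shuts the pathway down after stimulation. It had 144 reads in the S435D library and 163 in the WT library, at 1.21 and 1.44 RPKM (fold 0.840, 0.667 to 1.06). NFKBIA exceeded it 15.1 times in the S435D library (12.7 to 18.1) and 12.5 times in the WT library (10.6 to 14.8). BCL3 (chromosome 19, 44747705 to 44760044, plus strand), an IkB-like nuclear cofactor of p50 and p52 dimers, was at 0.761 RPKM in the S435D library and 1.01 in the WT library. Its fold of 0.756 has an interval of 0.526 to 1.08, the widest on a log scale among the members, and includes 1.

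CCL5 (chromosome 17, 35871491 to 35880793, minus strand) encodes RANTES, a chemokine that draws T cells and monocytes and is an NF-kB and interferon target. It had 148 reads in the S435D library and 99 in the WT library, at 4.16 and 2.93 RPKM. Its fold of 1.42 (1.09 to 1.85) was the farthest from 1 among the 10 members with all exons counted, though below the 2.60 of REL outside its shared stretch, and its log2 ratio (pseudocount 0.5 RPKM) was 0.44. Of the 13290 expressed genes 235 had a higher log2 ratio (1.77%). Of the 1612 expressed genes whose reads were within 1.5 times those of CCL5, 14 had a higher fold (0.868%). For REL with all exons counted, at a fold of 1.30, the same share was 45 of 2235 genes (2.01%). No such share was computed for the 2.60, a stretch chosen after the values had been seen. The members were chosen with earlier results of these data known, and CCL5 is singled out as the extreme of 10. The shares above therefore give ranks and do not measure how rare such a fold is. On the other strand AC015849.2 spans CCL5 without sharing an exonic base, and had 0 reads in the S435D library and 1 in the WT library.

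**Figure D3:**
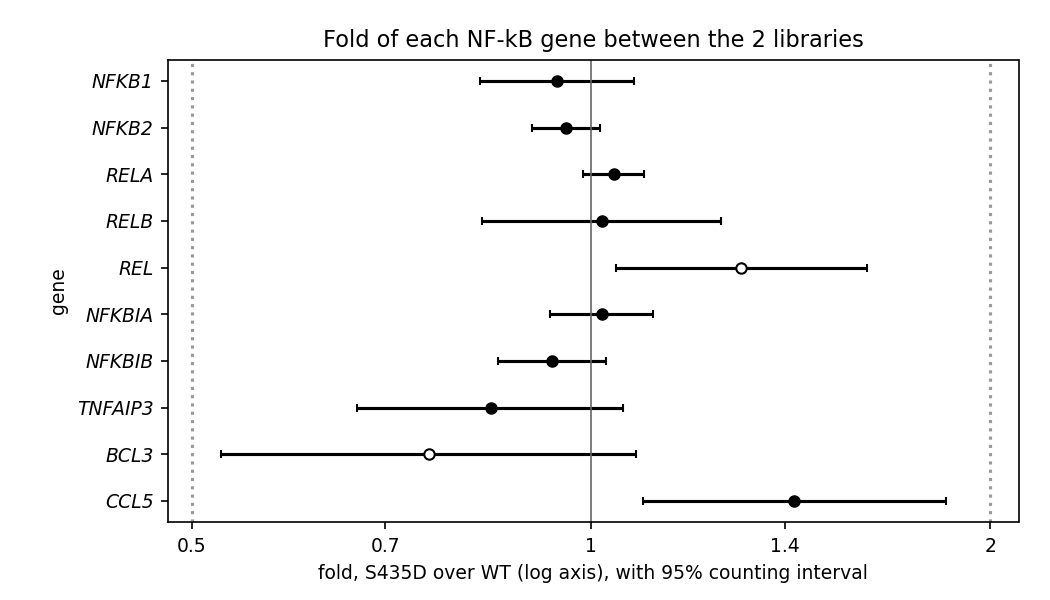
Fold of S435D over WT (log axis) for each NF-kB gene with its exact 95% counting interval; filled points had a mean of at least 1 RPKM, open points (REL and BCL3) did not, and dotted lines mark 2-fold. The intervals of CCL5 (1.09 to 1.85) and REL (1.04 to 1.62) lie above 1 and the other 8 include 1.

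Across the members, 0 of the 8 expressed genes were 2-fold higher or lower in the S435D library by the log2 ratio with its pseudocount. Over all 13290 expressed genes 0.843% were past 2-fold, 45 higher (0.339%) and 67 lower (0.504%). Among the 9761 expressed genes that GENCODE annotates as protein-coding, which include the members, 0% were past 2-fold. Of the 8 expressed members 4 were higher and 4 lower. Their median log2 ratio was -0.019, beside -0.024 over all expressed genes. Centring and scaling by a trimmed mean turned that median above 0, to 0.0048 and 0.0076, and leaving out genes that overlap others turned it to 0.022. The counting interval left out 1 in 1 of the 8, CCL5, on the higher side. Such intervals made up 23.4% of all expressed genes (8.71% higher and 14.7% lower) and 25.6% of the protein-coding ones, so the count of members is not above the background.

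**Figure D4:**
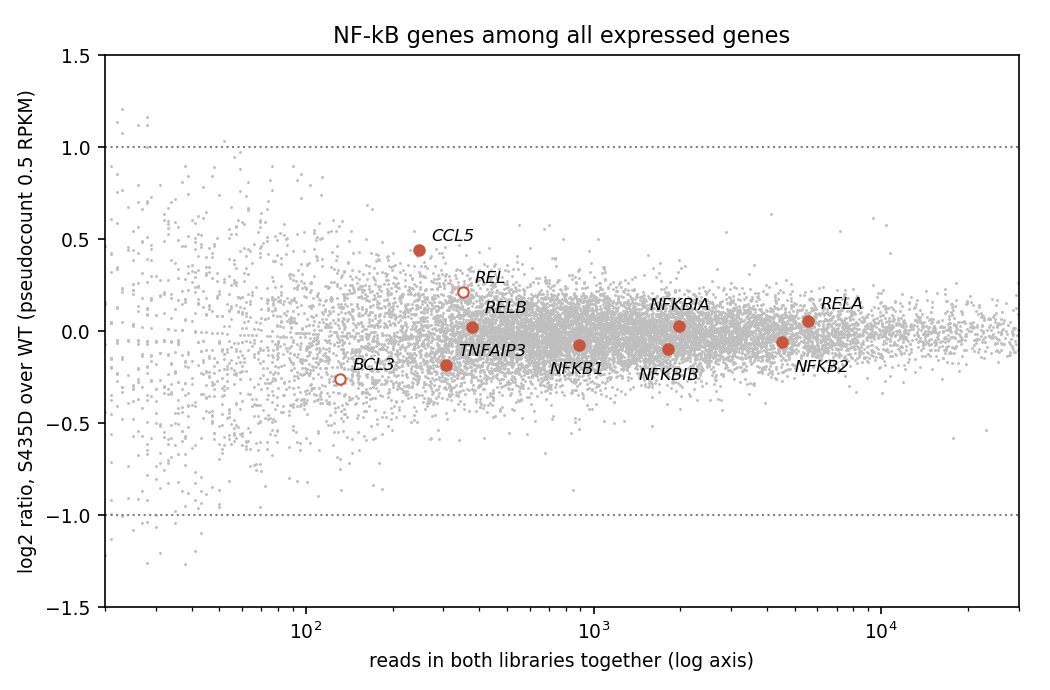
Log2 ratio of S435D over WT (pseudocount 0.5 RPKM) against the reads of both libraries together (log axis) for expressed genes (grey) and the NF-kB genes (red, open where the mean was below 1 RPKM); dotted lines mark 2-fold, and 531 of 13290 expressed genes lie outside the axes. CCL5 at 0.44 stands near the upper edge of genes of its depth, and REL at 0.22 is the next highest member.

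The depth limits what could be seen. For RELA and NFKB2, the members with the most reads, the interval reached no farther than 1.10 upward and 0.903 downward. For BCL3, with 58 reads in the S435D library and 73 in the WT library, a fold anywhere from 0.526 to 1.08 was within counting error. A single read equalled 0.0281 RPKM of CCL5 in the S435D library and 0.0296 in the WT library.

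The other genes of the pathway were read from 7 lists of 116 genes in all, of which 52 were expressed. None of the 52 was past 2-fold by the log2 ratio with its pseudocount. In the S435D library 22 were higher and 30 lower, where 42.9% of all expressed genes had a fold above 1 and 57.1% below, and their median log2 ratio was -0.021, which centring and a trimmed mean turned to 0.0028 and 0.0058. The interval lay above 1 in 5 and below 1 in 2 of them, against 23.4% of all expressed genes in either direction. Of 14 genes for the IKK complex and upstream kinases, 12 were expressed, of which 6 were higher and 6 lower, at a median of 0.015, which rescaling both libraries to the same RPKM total turned to -0.046. IKBKE, an IKK-related kinase of the interferon response that overlaps another gene with reads, was at 3.17 RPKM in the S435D library and 2.54 in the WT library (fold 1.25, 1.04 to 1.502). MAP3K7, the TAK1 kinase that activates IKK, was at 3.02 and 2.64 RPKM (1.15, 1.01 to 1.31). IKBKB, the catalytic IKK-beta, was at 2.37 and 2.54 RPKM (0.933, 0.830 to 1.05), and TBK1, a relative of IKBKE, had a fold of 0.974. TAB1, the TAK1 partner, was the most abundant at 19.0 and 18.4 RPKM.

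Of 16 receptor genes 4 were expressed, 3 higher and 1 lower. TNFRSF1A, the main receptor for TNF, was at 5.34 RPKM in the S435D library and 4.599 in the WT library (fold 1.16, 1.02 to 1.33). TNFRSF12A, the receptor for TWEAK, was the most abundant at 6.97 and 6.44 RPKM (1.08, 0.916 to 1.28). CD40 was at 4.44 and 4.18 RPKM, and IL17RA, the lowest by ratio, at 2.90 and 3.13 RPKM. Of the receptors below the filter, named after their values were seen, LTBR, which feeds the non-canonical pathway, had 3 reads in the S435D library and 1 in the WT library, and TLR2 had 0 in both.

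Among adaptors and ubiquitin ligases 15 of 21 were expressed, 6 above and 9 below a fold of 1. Their median log2 ratio was -0.014, which centring and a trimmed mean turned to 0.010 and 0.013. IRAK1, a kinase of the Toll and IL-1 receptor pathway, was the most abundant at 96.5 RPKM in the S435D library and 86.2 in the WT library (fold 1.12, 1.09 to 1.15). RNF31, the catalytic subunit of the linear ubiquitin ligase LUBAC, was at 5.43 and 5.20 RPKM. BIRC2, the ubiquitin ligase cIAP1, was at 1.51 and 1.83 RPKM (0.823, 0.662 to 1.02), and TRADD, the adaptor of the TNF receptor, at 2.22 and 2.60 RPKM (0.855, 0.672 to 1.09). Of 14 other inhibitors 9 were expressed, 2 higher and 7 lower, beside 57.1% of all expressed genes below a fold of 1. TAX1BP1, an adaptor through which A20 acts, was at 9.01 RPKM in the S435D library and 10.6 in the WT library (0.852, 0.801 to 0.906). TAX1BP1 also overlaps another gene with reads. OTULIN, which cleaves linear ubiquitin chains, was at 2.06 and 2.35 RPKM. The A20-binding proteins TNIP2 and TNIP1 were abundant, at 35.7 and 30.8 RPKM in the S435D library against 35.2 and 29.9 RPKM in the WT library.

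**Figure D5:**
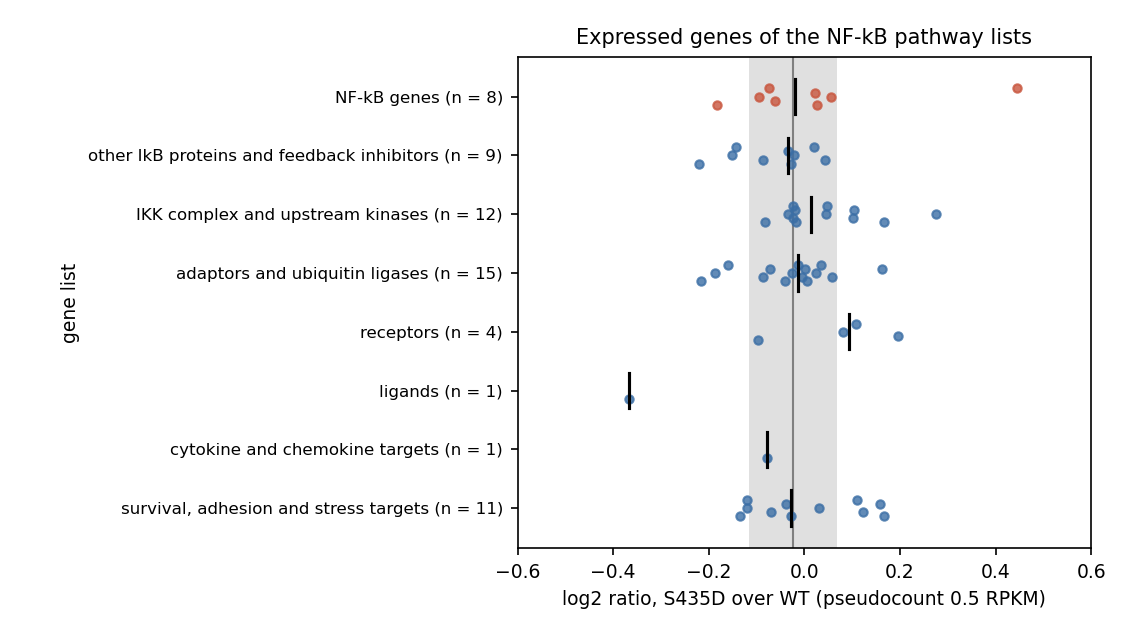
Log2 ratio of S435D over WT (pseudocount 0.5 RPKM) for the expressed genes of each pathway list (points), with the median of each list (black bar); the grey line and band are the median and interquartile range over all 13290 expressed genes (-0.024, -0.12 to 0.068). No list gene passes 2-fold, and the CCL5 point at 0.44 is the farthest to the right.

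CCL5 was the most abundant of the chemokine and cytokine genes read. Of 21 other cytokine and chemokine targets only CSF1, a macrophage growth factor, was expressed, at 1.44 RPKM in the S435D library and 1.54 in the WT library (fold 0.931, 0.755 to 1.15). The rest, named after their values were seen, were near 0: CXCL8 had 12 reads in the S435D library and 5 in the WT library, CXCL1 had 14 and 24, CCL2 had 3 and 3, and CXCL10, which shares interferon control with CCL5, had 2 and 1. LIF, a cytokine of the IL-6 family, had 41 and 17 reads, a fold of 2.29 without a pseudocount (1.27 to 4.31) at a mean below 1 RPKM. LIF also overlaps another gene with reads. IL6 had 0 in both libraries. Of 13 ligand genes only TNFSF12, which encodes TWEAK and overlaps another gene with reads, was expressed, at 48 reads in the S435D library and 65 in the WT library (0.702, 0.473 to 1.04). TNF, IL1A and IL1B were named outside the rule of naming given below. TNF had 11 reads in each library, and IL1A and IL1B had 0.

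Of 24 survival, adhesion and stress targets 11 were expressed, 5 above and 6 below a fold of 1. Their median log2 ratio was -0.027. IER3, an early response gene, was the most abundant at 11.98 RPKM in the S435D library and 10.6 in the WT library (fold 1.13, 0.970 to 1.31). SDC4, a heparan sulphate proteoglycan, was at 4.41 and 3.90 RPKM (1.13, 0.944 to 1.35). GADD45B, a stress gene, was at 5.79 and 6.40 RPKM (0.904, 0.768 to 1.07) and PTX3, a soluble pattern recognition protein, at 9.25 and 10.1 RPKM (0.916, 0.800 to 1.05). These 4 intervals include 1. SOD2, the mitochondrial superoxide dismutase, named after its values were seen, was at 2.57 RPKM in the S435D library and 2.84 in the WT library (0.907, 0.836 to 0.984). SOD2 also overlaps another gene with reads. ICAM1 and BIRC3 were also named outside the rule of naming given below. ICAM1 had 15 reads in the S435D library and 8 in the WT library, and BIRC3 had 1 and 0.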

How the data were processed

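The authors deposited a single table of RPKM for both libraries, per the file headers, beside the exon positions and the length of every gene. The sources used here do not name an aligner, counter, strand setting, build, annotation or library protocol. Of 28296 genes matched by symbol and chromosome to GENCODE release 29 (GRCh38), 93.3% had the same start and end, including all 10 members. Dividing RPKM times length by its smallest step gave whole reads for 100% of the values above 0 (tolerance 0.01 reads).

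Folds are RPKM ratios with exact conditional binomial (Clopper-Pearson) 95% intervals. Log2 ratios had a pseudocount of 0.5 RPKM, which understates differences of low genes. A mean of at least 1 RPKM defined expressed genes, and 2-fold was the rule of size. By rule, the pathway genes named were the most abundant and the 2 highest and 2 lowest by ratio of each list. Other genes were named outside that rule, and not each of them is marked where it appears. The members and lists were chosen with earlier results of these data known. Overlap with another gene that had reads is not stated for every list gene it affects. Settings of low filter, pseudocount, scaling, overlap and fold rule were varied. The interval and fold steps were tested on simulated data. Scripts ran in Python 3.11.15 with SciPy 1.17.1 for intervals, pandas 2.3.3, numpy 2.4.6 and, for plots, matplotlib 3.10.9.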

Additional observations from a re-analysis of the deposited data

How the results depend on the processing

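Counted by the log2 ratio with a pseudocount, 0 members and 0 listed pathway genes were past 2-fold under each setting tried. Without a pseudocount some listed genes below the filter are past it on few reads. Among them LIF at a fold of 2.29, CXCL8 at 2.28 and PTGS2 at 4.75 were higher, and CXCL2 at 0.238 was lower. Of the listed genes below the filter, LIF and TAB3 had an interval above 1. CFLAR (0.733, 0.605 to 0.887), IRAK4 (0.631, 0.454 to 0.872), TNFRSF11A (0.618, 0.445 to 0.853) and TNFRSF13C (0.634, 0.398 to 0.998) had an interval below 1. The members' median log2 ratio stayed between -0.079 (both libraries rescaled to the same RPKM total) and 0.022. The rescaling turned RELA, RELB and NFKBIA below 0 (-0.0053, -0.033 and -0.035), while the signs of the other 7 members were the same under each pseudocount and scaling, with CCL5 from 0.39 to 0.49. REL without the stretch shared with RP11-373L24.1, a choice made after seeing the data, had a log2 ratio of 0.52 against 0.22 for all its exons. The count of expressed genes past 2-fold, 112 of 13290 as reported, was 177 and 66 with pseudocounts of 0.1 and 1 RPKM, 370 of 28326 (1.31%) without a filter on low values, 5 of 6580 at a mean of at least 5 RPKM, 24 of 4653 (0.516%) without genes that overlap others, 354 under a 1.5-fold rule and 0 of 9761 among protein-coding genes, a restriction added after seeing the data. It was 390 of 16679 after the rescaling, where the filter and the pseudocount act on larger values, so scaling is not the only change. No paired analysis was possible because each group has 1 library, and for the same reason no library could be left out.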
